A study of Arabidopsis thaliana with 3 samples.

Results

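The cysteine-rich receptor-like kinases (CRKs) of Arabidopsis thaliana are membrane proteins with an extracellular region made of cysteine-rich DUF26 domains, a single membrane span and an intracellular serine/threonine kinase domain. They are known for roles in the response to pathogens, to reactive oxygen species and to salicylic acid, and in Arabidopsis most of them lie in tandem arrays on chromosome 4. The members were taken by rule from the RefSeq gene table: nuclear protein-coding genes whose symbol is CRK followed by a number and whose annotation reads cysteine-rich RLK. The rule gave 38 of 27432 nuclear protein-coding genes. It leaves out the CDPK-related kinase genes, which also carry CRK symbols, and 4 genes whose CRK name is only a synonym in that table: RKF2 (CRK1), ARCK1 (CRK45), EP1 (CRK9) and EMB1290 (CRK17).

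Chromatin was immunoprecipitated from whole 14-day-old seedlings with an anti-GFP antibody, and such antibodies also bind YFP. The plants were dek2-1 mutants that carried DEK2-YFP, a tagged form of the DEK-type chromatin protein AtDEK2, under the DEK2 promoter. Peak lists of 2 immunoprecipitates were used, 1 list for each. A single input of these plants, taken without antibody, has no peak list. Whether it entered the modelled background is not stated, so the folds of both replicates may rest on it. An immunoprecipitation from plants without the tag was not analysed here, so a peak is enriched over the modelled background only. Whether the replicates came from plants grown apart is not stated, so their spread may be technical. Whole seedlings mix many cell types, and a weak signal in all cells cannot be told apart from a strong one in a few.

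Replicate 1 peaks counted as shared when a replicate 2 peak overlapped them over 50% or more of the shorter of the pair, and a gene counted as bound when the replicate 1 summit of a shared peak lay inside it or within 500 bp of either end. "Bound" names that position and no more. The lists held 25742 peaks in replicate 1 and 13307 in replicate 2. The fold enrichment of each peak is the authors' own ratio to the modelled background. From that ratio and the p-value of each peak the number of fragments at its summit was worked out. The commonest background was 60.5 fragments in replicate 1 and 22.1 in replicate 2, a ratio of 2.74, so replicate 1 can list weaker enrichment. At those backgrounds the lowest listed fold was 1.37 in replicate 1 and 1.69 in replicate 2.

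A minority of the CRK genes carried a peak found in both immunoprecipitates. Of the 38 CRK genes 8 were bound (21.1%, 95% Wilson interval 11.1 to 36.3), against 9374 of all protein-coding genes (34.2%). The 8 are CRK2, CRK10, CRK11, CRK18, CRK27, CRK34, CRK40 and CRK42. The other 30 include CRK5, CRK13, CRK28 and CRK36, which have been tied to immune responses in Arabidopsis. This interval covers counting error only, and members of an array are neighbours and not independent. The share of all protein-coding genes lies within it.

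CRK genes are long, and the bound share of genes went up with their length. CRK gene spans ran from 2453 to 4725 bp with a median of 2946 bp, against a median of 2078 bp over all protein-coding genes. When each CRK gene was given the bound share of its own bin among 20 bins of gene length, 16.0 of 38 genes (42.1%) would be bound, against the 8 found. This share lies above the interval of the CRK genes, but that depends on the rule, including the use of the replicate 1 summit. With the replicate 2 summit of each shared peak, 11 of 38 CRK genes (28.9%) were bound, against 16.2 by length. The interval for 11 of 38 is 17.0 to 44.8, which holds the length share. With genes within 10% of each member's length in place of bins the number was 15.9. Among all genes of the length bins that hold CRK genes, the bound share ran from 39.5% to 44.4%.

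**Figure D1:**
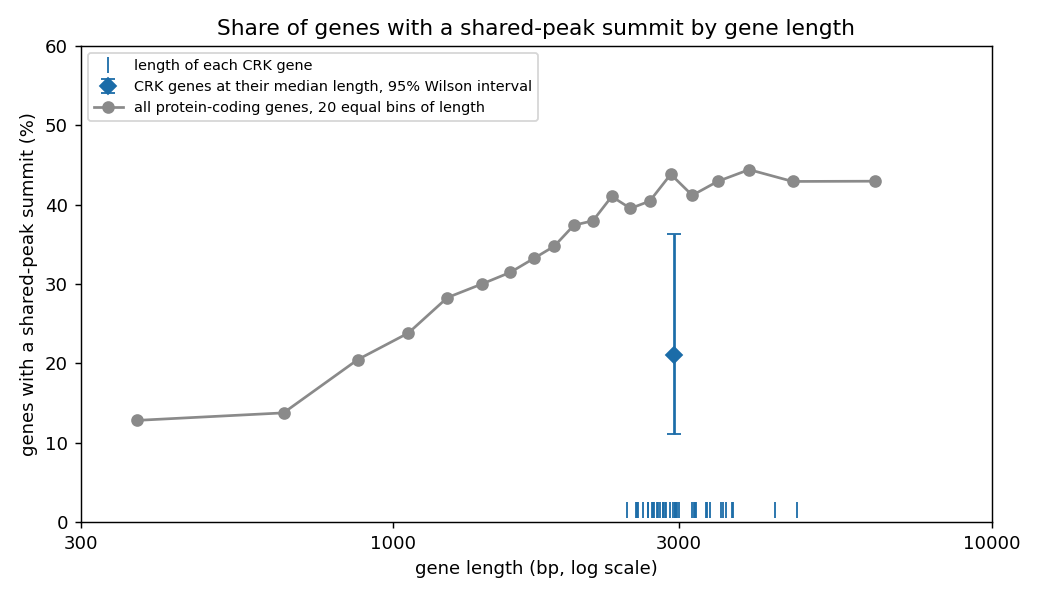
Percentage of genes with a shared-peak summit inside or within 500 bp (y axis) against gene length in bp (x axis, log scale). The diamond is the 38 CRK genes (21.1%, bar: 95% Wilson interval 11.1 to 36.3) at their median length of 2946 bp, the ticks are the lengths of the CRK genes, and the circles are all protein-coding genes in 20 equal bins of length, between 39.5% and 44.4% in the bins that hold CRK genes.

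In each replicate taken alone the share of CRK genes was below that of the genome, but only in replicate 1 did the interval lie below it. In replicate 1, 19 of 38 CRK genes (50.0%, 34.85 to 65.15) had a summit, against 66.7% of all protein-coding genes and 77.9% of genes of their length. In replicate 2, 11 of 38 (28.9%, 17.0 to 44.8) had one, against 37.0% of all and 45.2% of genes of their length. That interval holds the share of all genes and ends just below the length share. Summits of shared peaks inside the gene itself were found in 3 CRK genes (7.89%), CRK2, CRK11 and CRK40. The share was 15.3% of all protein-coding genes and 20.8% of genes of their length. The interval of the CRK genes, 2.72 to 20.8, holds the share of all genes.

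The 38 members fell into 5 sets by what the lists held. The same sets were not counted over all protein-coding genes, so these counts describe the members only. Besides the 8 bound genes, CRK3 and CRK19 had a summit in each list without a shared peak of their own, 9 genes had summits in replicate 1 only, CRK28 had 1 in replicate 2 only, and 18 genes had none in either list. Those 18 include CRK36, which encodes a partner of the cytoplasmic kinase BIK1 in Arabidopsis, CRK13, whose overexpression causes cell death in leaves, and CRK4, CRK7 and CRK20. The remaining 13 are CRK15, CRK16, CRK21, CRK22, CRK23, CRK25, CRK26, CRK30, CRK31, CRK33, CRK37, CRK38 and CRK39. Enrichment too weak for the authors' threshold leaves no peak in the lists, so these genes are not shown to lack the protein.

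**Figure D2:**
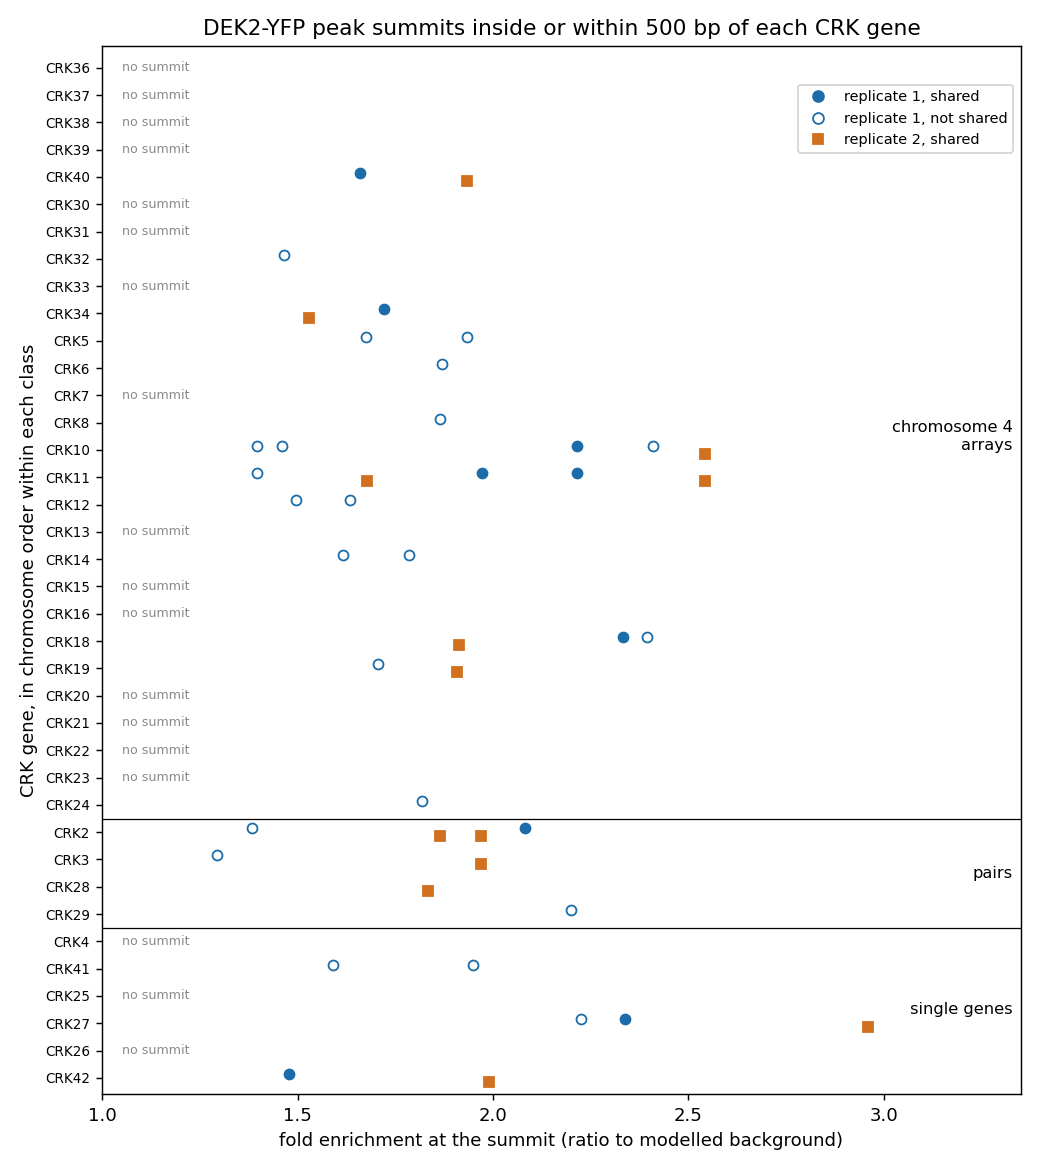
Fold enrichment (x axis, ratio to the modelled background) of every peak summit inside or within 500 bp of each of the 38 CRK genes (y axis), grouped as chromosome 4 arrays, pairs and single genes. Circles are replicate 1 and squares replicate 2, filled where the peak is shared; 18 genes have no summit, and the highest value is 2.96 at CRK27 in replicate 2.

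Most CRK genes lie in arrays, which were defined as at least 3 CRK genes on chromosome 4 with at most 2 other protein-coding genes between neighbours. This gave 3 arrays with 28 genes: CRK5 to CRK24 with 18 members, CRK30 to CRK34 with 5, and CRK36 to CRK40 with 5. Another 4 genes form the pairs CRK2 and CRK3 on chromosome 1 and CRK28 and CRK29 on chromosome 4. The single genes are CRK4, CRK25, CRK26, CRK27, CRK41 and CRK42. In all, 34 of the 38 members lie on chromosome 4, where 31.5% of the 4179 protein-coding genes were bound.

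Array genes were bound in 5 of 28 cases (17.9%, 7.88 to 35.6) and single genes in 2 of 6 (33.3%, 9.68 to 70.0). The share in genes of the same length was 42.1% for the array genes and 41.5% for the single genes. The array interval lies below its length share and the single-gene interval holds its own, but the intervals of array and single genes overlap over most of their range, so 6 single genes are too few to set the classes apart. Of the paired genes 1 of 4 was bound (25.0%, against 43.2% of genes of their length). In each replicate alone 3 of 4 paired genes (75.0%) had a summit. The share by length was 79.0% in replicate 1 and 46.4% in replicate 2. In replicate 1 alone, 13 of 28 array genes (46.4%) and 3 of 6 single genes (50.0%) had a summit. In replicate 2 alone the numbers were 6 of 28 (21.4%) and 2 of 6 (33.3%). When no other gene was allowed between array members, 2 of 23 array genes (8.70%) and 4 of 9 single genes (44.4%) were bound. That change only relabels genes: the bound CRK34 and CRK40 become single and the bound CRK18 leaves the arrays, while the peaks stay the same. The wider gap is therefore no further evidence for a difference between the classes. With summits inside the gene only, the order turned round, with 2 of 28 array genes (7.14%) and none of the 6 single genes.

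The CRK5 to CRK24 array, with 18 of the 28 array genes, held most of the summits of the arrays. Its 75.2 kb, with 500 bp added at each end, contained 20 summits of replicate 1 (26.6 per 100 kb, against 20.3 over chromosome 4) but 5 of replicate 2 (6.65 per 100 kb against 9.66) and 4 shared peaks (5.32 per 100 kb against 7.87). By these counts replicate 1 summits were denser there than over the chromosome, and replicate 2 summits sparser. The counts are small and no interval was worked out for these densities, so the differences may lie within counting error. One of the 4 shared peaks lies at EP1 (CRK9), outside the 18 members. Within the array CRK20, CRK21, CRK22 and CRK23, which stand side by side, had no summit in either list.

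CRK10 and CRK11, both induced by pathogens in Arabidopsis, share a peak that was the strongest of the array in replicate 2 but not in replicate 1. It lies on chromosome 4 from 12140594 to 12141389, and the replicate 1 summit stood 69 bp inside CRK11 and 38 bp outside CRK10, whose spans overlap in the gene table. The fold was 2.22 in replicate 1, from 162 fragments (95% Poisson interval 138 to 189) over a background of 72.5, and 2.54 in replicate 2, from 69 fragments (53.7 to 87.3) over 26.5. CRK11 had a second shared peak beyond its other end, from 12143665 to 12144493, with folds of 1.97 and 1.68. CRK10 also had the highest fold of any unshared peak near a CRK gene, 2.41 in replicate 1, with its summit 171 bp inside the end away from CRK11.

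CRK18 had a shared peak from 12170057 to 12171373, in the gap before CRK19, with its summit 212 bp outside the gene. The fold was 2.33 in replicate 1, from 167 fragments (143 to 194) over 71.0. This wide replicate 1 peak overlapped 2 narrow peaks of replicate 2, with a fold of 1.91 each, of which 1 has its summit 337 bp from CRK18 and the other 135 bp from CRK19. At its other end CRK18 had a replicate 1 peak of 2.39 without a partner, whose summit is also near EMB1290 (CRK17). CRK19 itself is not counted as bound, since the replicate 1 summit of the shared peak lies 663 bp away from it.

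The other arrays had 1 bound gene each, at the end of the array in both cases. In the CRK36 to CRK40 array, CRK40 had the only summit in 62.2 kb, on chromosome 4 from 2288968 to 2289185 and 417 bp inside the gene. Its summit fell on the same base in both replicates, with folds of 1.66 and 1.93 from 127 (106 to 151) and 53 (39.7 to 69.3) fragments over 76.1 and 26.9. CRK36, CRK37, CRK38 and CRK39 had no summit in either list. This array also holds 8 annotated pseudogenes, against 1 in each of the other arrays.

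In the CRK30 to CRK34 array, CRK34 had a shared peak from 6986346 to 6987179 with folds of 1.72 and 1.53. Its replicate 1 summit lies 293 bp outside CRK34 and inside the next gene, AT4G11521, so the gene it belongs to is not settled. The replicate 2 peak was among the weakest of its list, where 1.80% of peaks had a lower fold. CRK32 had 1 peak, in replicate 1, with a fold of 1.47, and CRK30, CRK31 and CRK33 had none.

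**Figure D3:**
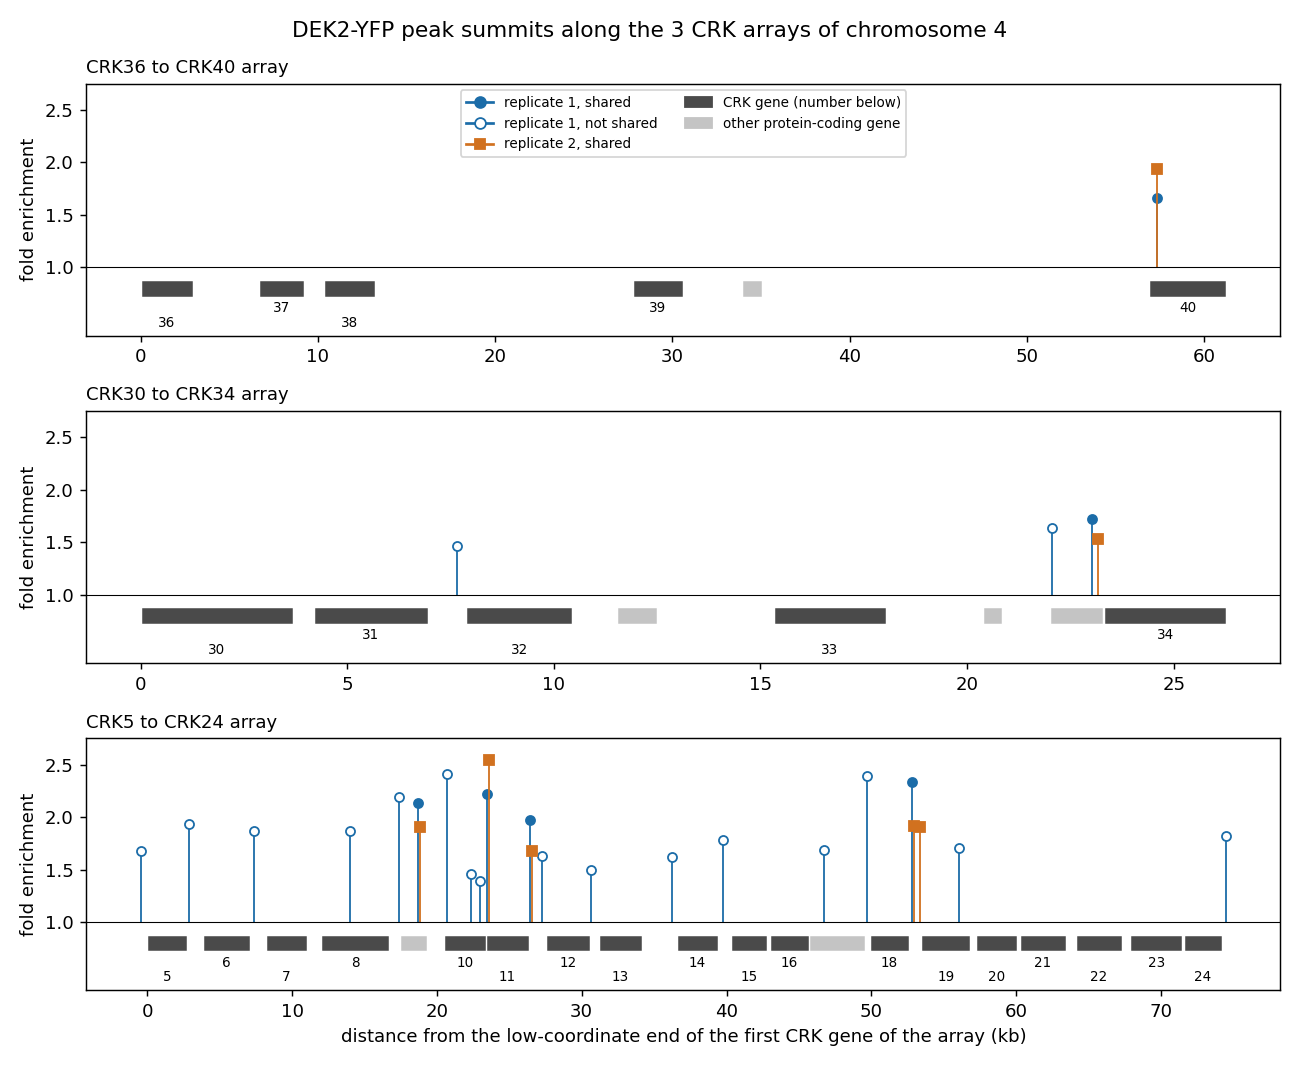
Peak summits along the 3 CRK arrays of chromosome 4, as fold enrichment (y axis) against distance in kb from the low-coordinate end of the first CRK gene (x axis). Circles are replicate 1 and squares replicate 2, filled where shared; dark boxes are CRK genes with their numbers and light boxes other protein-coding genes. The CRK5 to CRK24 array holds 20 replicate 1 and 5 replicate 2 summits, and the CRK36 to CRK40 array holds 1 of each.

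Of the paired genes, CRK2, whose product phosphorylates the NADPH oxidase RBOHD in Arabidopsis, was bound. Its shared peak lies on chromosome 1 from 26587311 to 26588678 where the replicate 1 summit stood 56 bp inside CRK2. The fold was 2.08, from 204 fragments (177 to 234) over 97.4. It matched 2 peaks of replicate 2 with folds of 1.87, 6 bp inside CRK2, and 1.97, in the gap of 762 bp between CRK2 and CRK3. CRK3 thus had a replicate 2 summit 286 bp outside it, and a replicate 1 summit of 1.29 at 139 bp inside its far end, without a partner in replicate 2.

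CRK28, which encodes a partner of BAK1 that takes part in responses to bacteria in Arabidopsis, had a replicate 2 peak of 1.83 with its summit 249 bp outside the gene. The replicate 1 peak it overlaps has a fold of 2.302 and its summit 543 bp outside, just beyond the window. Its neighbour CRK29 had a replicate 1 peak of 2.20 at 64 bp inside the gene and no replicate 2 peak.

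Among single genes CRK27 had the shared peak with the highest fold of all shared peaks near CRK genes in each replicate, although in replicate 1 the unshared peaks at CRK10 and CRK18 were higher. The CRK27 peak lies on chromosome 4 from 11318438 to 11319027 and reached 2.34 in replicate 1, from 152 fragments (129 to 178) over 64.4, and 2.96 in replicate 2, from 80 fragments (63.4 to 99.6) over 26.4. In replicate 2 this fold ranks 237th among 13307 peaks. Its replicate 1 summit, however, lies 358 bp outside CRK27 and 356 bp inside the next gene, LpxD2 (AT4G21220). On the other side CRK27 had a replicate 1 peak of 2.23, also near AT4G21240, without a partner in replicate 2.

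CRK42 on chromosome 5 had a weak shared peak from 16151288 to 16151501, 172 bp outside the gene, with folds of 1.48 and 1.99 from 90 (72.4 to 111) and 45 (32.8 to 60.2) fragments over 60.5 and 22.1. CRK41 had replicate 1 peaks of 1.95 and 1.59, 1 beside each end, and none in replicate 2. CRK4, CRK25 and CRK26 had no summit within 500 bp. The nearest shared summits to CRK4 and CRK26 lay 504 and 825 bp away, with folds of 2.18 and 2.15 at CRK4 and of 2.35 and 2.48 at CRK26, so both would count with a window of 1000 bp. On the inner side of the window, the farthest shared summits were those of CRK27 at 358 bp and CRK34 at 293 bp.

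**Figure D4:**
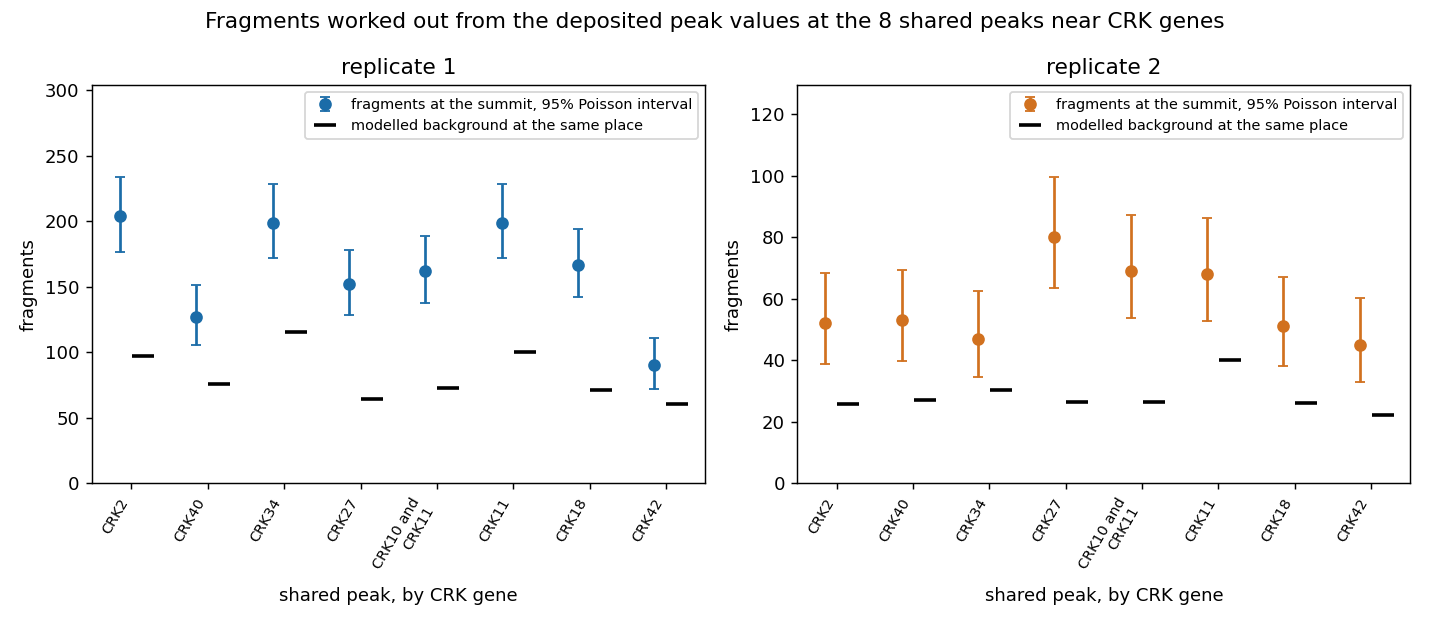
Fragments at the summit (y axis, points with 95% Poisson intervals that cover counting error only) and the modelled background at the same place (black dashes) for the 8 shared peaks near CRK genes (x axis), in replicate 1 (left) and replicate 2 (right, with its own scale). Where 2 replicate 2 peaks match, the one with the higher fold is shown. Peaks were listed for exceeding this background, so only the sizes are of interest: the margin is smallest at CRK42 in replicate 1 (90 fragments over 60.5) and at CRK34 in replicate 2 (47 over 30.4).

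Where CRK genes were bound, their folds lay near the medians of all bound genes. The best shared peak of the 8 bound CRK genes had a median fold of 2.15 in replicate 1 (range 1.48 to 2.34) and 1.98 in replicate 2 (range 1.53 to 2.96). Over all 9374 bound genes the medians were 2.12 and 2.04. Median widths at the bound CRK genes were 796 bp in replicate 1 and 217 bp in replicate 2, against 620 and 278 bp over all bound genes.

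Most replicate 1 peaks at CRK genes had no partner in replicate 2. Of 29 distinct replicate 1 peaks near CRK genes 8 were shared (27.6%), against 42.0% of all replicate 1 peaks, whereas all 11 replicate 2 peaks near CRK genes had a partner, against 88.9% of all. The 21 replicate 1 peaks without a partner had folds from 1.29 to 2.41 with a median of 1.71. Of these, 11 reached 1.69, the lowest fold listed in replicate 2 at its commonest background. Apart from CRK10, CRK18, CRK27 and CRK29, with 2.41, 2.39, 2.23 and 2.20, the highest was CRK41 with 1.95. CRK5, CRK6 and CRK8 followed with 1.93, 1.87 and 1.87 and had no replicate 2 peak. CRK genes are similar copies of each other, and the labels do not say how the authors handled reads that match several of them. The part of such reads in these counts was not tested.

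Summits at CRK genes lay beside the gene more often than in it. Counting each gene and summit together, 10 of 31 replicate 1 cases (32.3%) and 3 of 13 replicate 2 cases (23.1%) were inside the CRK gene, against 44.7% and 40.9% over all protein-coding genes. CRK8, CRK10 and CRK19 had a replicate 1 summit more than 500 bp inside the gene, at 2041, 1054 and 737 bp from the nearer end. None of these was shared. They are 3 of the 31 replicate 1 cases (9.68%), against 6.69% over all protein-coding genes. In replicate 2 such deep summits made up 0 of 13 cases, against 6.98% over all protein-coding genes. Among shared peaks they made up 0 of 9, against 5.52%. These counts are too small to say whether deep summits were rarer at CRK genes. The gene table gives no strand, so starts and ends of transcription were not told apart.

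The genes on either side of the arrays were also seldom bound. Of the 30 genes that stand within 5 protein-coding genes of an array on either side, 2 were bound (6.67%, 1.85 to 21.3), against 34.1% of genes of their length. They were GSH1, which encodes the first enzyme of glutathione synthesis, beside CRK5 to CRK24, and AT4G11450 beside CRK30 to CRK34. None of the 10 genes around CRK36 to CRK40 was bound. Around the single genes 16 of 60 genes were bound (26.7%, 17.1 to 39.0), against 32.9% of genes of their length. These were uneven, with 5 of 10 around CRK27, 5 of 10 around CRK42, 3 around CRK26, 2 around CRK41, 1 around CRK4 and 0 around CRK25. Thus the 2 single genes with a shared peak are those with the most bound neighbours, although 1 of the 5 around CRK27 is LpxD2, through the peak it shares with CRK27. AT4G21213 and AT4G21215, also among the 5 around CRK27, carry the same peak, with folds of 1.75 and 2.10. Of the 7 other genes between array members 2 were bound (28.6%, 8.22 to 64.1), against 25.8% of genes of their length. They were EP1 (CRK9) with folds of 2.14 and 1.90 and AT4G11521 through the peak it shares with CRK34.

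**Figure D5:**
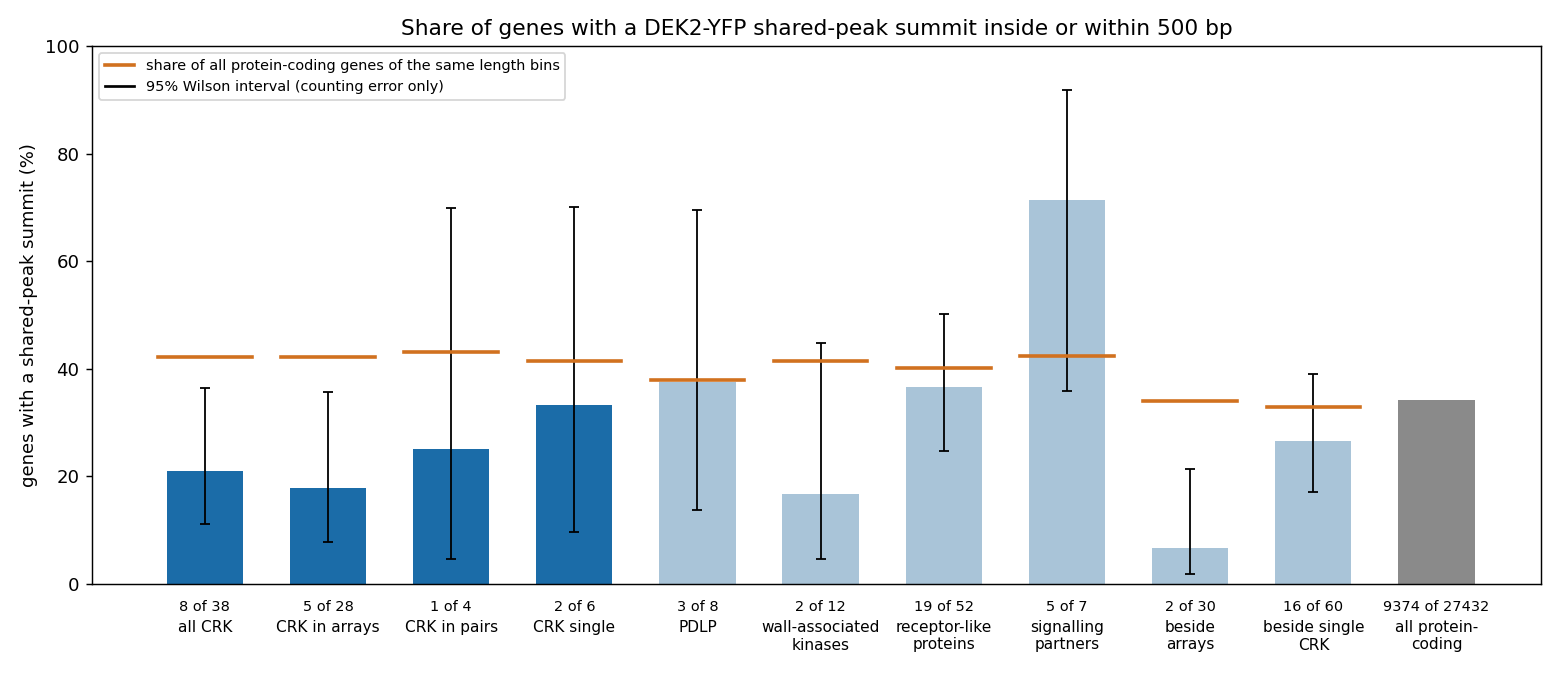
Percentage of genes with a shared-peak summit inside or within 500 bp (y axis) for all CRK genes and their classes, for related lists, for genes beside arrays and single CRK genes, and for all protein-coding genes. Bars are the share found with its 95% Wilson interval, orange lines the share of genes in the same length bins, and the numbers below are bound genes of all genes. All CRK genes stand at 21.1% against 42.1% by length, and genes beside the arrays at 6.67% against 34.1%.

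Other genes of the same pathways gave mixed counts. The PDLP genes encode plasmodesmal proteins with DUF26 domains and no kinase, and 3 of 8 were bound (37.5%, against 38.0% of genes of their length): PDLP8 with 2.39 and 2.07, PDLP4 with 2.49 and 1.88, and PDLP1. Of 7 genes taken as partners of CRK signalling, 5 were bound (71.4%, 35.9 to 91.8), against 2.97 by length. The interval holds the 42.5% of genes of their length. Ranked by the worse of the ranks of fold in the 2 replicates, the first were RBOHF, an NADPH oxidase gene, with 3.08 in replicate 1 and 2.23 in replicate 2, and PLDALPHA1, a phospholipase D gene, with 2.33 and 2.202. RBOHD, the main NADPH oxidase gene of the immune response, had 2.24 and 2.33, and the co-receptor gene BAK1 and the callose synthase gene CALS1 were bound too. The flagellin receptor gene FLS2 and BIK1 were not. Values of some of these genes were known when the list was made.

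Other families of cell-surface receptors did not share 1 level. Of 52 receptor-like protein genes, which encode receptors without a kinase domain, 19 were bound (36.5%, 24.8 to 50.1), against 40.1% of genes of their length, of which RLP51 with 2.79 and 2.54 and RLP13 with 2.55 and 2.42 came first by that ranking. In single replicates others were higher, RLP31 with 3.01 in replicate 1 and RLP1 with 2.79 in replicate 2. Of 12 wall-associated kinase genes, many of which stand in arrays as well, 2 were bound (16.7%, 4.70 to 44.8), against 41.4% by length. Both, WAKL6 and WAKL7, share 1 peak with 2.66 and 2.09. No test set the CRK genes apart from these families, and the intervals overlap.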

How the data were processed

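Per the labels, the data are peak lists of 2 immunoprecipitates of 1 group. The submitters' processing notes name Trimmomatic 0.38, Bowtie2 2.3.5, SAMtools 1.9, MACS2 2.2.7.1 and the build TAIR10, without roles or settings. The authors called peaks per sample, as the deposited lists show. Columns were read by the narrowPeak layout. The deposited score is a whole number made from the q value, the deposited fold enrichment is a ratio to the modelled background, and the deposited p-value and q-value are −log10 values, with none of the latter under 1.30. Treatment of duplicates and of reads with several matches, and use of the input, are not given in the sources used here.

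Fragments at each summit were worked out from fold and p under MACS2's formulas (1 added to pileup and background, a Poisson tail). With a scaling of 0.894 in replicate 1 and 1 in replicate 2, whole fragment numbers fitted 100% of peaks with a p-value within 0.01 on the −log10 scale. Read depth itself is unknown.

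Gene names, spans and classes came from the RefSeq table of TAIR10.1. Its build name differs from TAIR10, so none of its coordinates is printed, and distances rest on that table. As a check, shared summits were moved along the chromosomes in steps of 50 bp up to 1000 bp each way: 41.2% lay inside genes where deposited, the lowest of all steps, against 62.1% when moved by 1000 bp. No strand and no sequence were used, so the planned promoter and protein descriptions, and a list of cysteine-rich repeat secretory proteins (0 genes by name in the table), were not analysed here.

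With 1 group there was no contrast to test. Counts are given beside all protein-coding genes and beside 20 bins of length, with 95% Wilson intervals for counting error. Members and lists were chosen with earlier results of these data known. Every bound member is named, as are members with unshared summits in both lists, the 5 highest of the others, the best 2 bound genes of each related list (by the worse of their ranks of fold in the replicates) and genes that share a peak with a member. The singled-out others (CRK4, CRK26, CRK28, CRK32 and EP1, with GSH1, AT4G11450, RBOHD, BAK1, CALS1, RLP31 and RLP1) were named after their values were seen. So were AT4G21213 and AT4G21215. Peak matching, gene placing, the length share and the fragment numbers were tested on simulated data with known answers. The sorting into arrays, pairs and single genes and the choice of neighbours were not. Python 3.11.15, NumPy 2.4.6, pandas 2.3.3, SciPy 1.17.1 and statsmodels 0.14.6 were used.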

Additional observations from a re-analysis of the deposited data

How the results depend on the processing

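The number of bound CRK genes, 8 of 38, lay below that of genes of the same length in 12 of 12 alternatives. It was 13 with a window of 1000 bp and 13 when any part of a shared peak counted, 3 for summits inside the gene, 3 with a −log10 q of 5 or more required in each list, 3 with an overlap over 50% of both partners and, chosen after seeing the data, 5 without peaks near more than 1 gene. Single replicates gave 11 to 19, and the replicate 2 summit of a shared peak gave 11, against 16.2 by length. With the window of 1000 bp the number by length was 18.4, and with any part of a shared peak 18.0. It was 7.92 for summits inside the gene and 8.05 with an overlap over 50% of both partners. At the stricter q it was 5.88, and without peaks near more than 1 gene 9.38. A number below that by length can still have an interval that holds the length share, as with the replicate 2 summit. Array genes (5 of 28) gave 2 inside the gene, 2 at the stricter q, 1 with the reciprocal overlap, 3 without peaks near more than 1 gene, 2 of 23 with no other gene between, and 6 to 13 from single replicates. Single genes (2 of 6) gave 1 with 250 bp, 4 with 1000 bp, 0 inside the gene, 1 at the stricter q, 4 for any part of a peak, 1 without peaks near more than 1 gene, 4 of 9 with no other gene between, and 2 to 3 from single replicates. They lay below genes of their length in 8 of 13 alternatives, and their share was above that of array genes in 12 of 13, the exception being summits inside the gene. These alternatives reuse the same few genes and are not independent, and the one with no other gene between only moves bound genes from class to class. Stricter rules leave fewer peaks by construction. Without length the number from all genes was 13.0 in place of 16.0. No paired analysis was possible because the immunoprecipitates form 1 group and the input has no list. The modelled background was lower in replicate 2 (22.1 fragments, against 60.5 in replicate 1), and a shared peak needs a listed peak in both.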
